A study of Mus musculus with 64 samples.

Results

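Endothelial cells sorted from sham-operated mouse hearts were compared between adult and newborn animals, all genes being measured by total RNA sequencing. The comparison takes 8 of the 64 libraries of the study: 4 from P56 sham endothelial cells and 4 from P1 sham endothelial cells. The mice were of the outbred CD1 strain and carried no engineered allele. The P56 animals were males operated on at 8 weeks of age (postnatal day 56) and the P1 animals were pups operated on at postnatal day 1, and cells were taken 3 days after surgery in both. A sham operation repeats the surgery without tying the coronary artery, so every animal of both groups had gone through an operation. Adult hearts were perfused with enzyme through the aorta, whereas the ventricles of pups were cut up and stirred in enzyme in pools of 6. In both, the light layer of a Percoll gradient was sorted for cells that carry CD31 (PECAM-1) and lack the leukocyte antigen CD45. Age was therefore bound up with the way the cells were freed and with sex, since the labels give no sex for the pups, and these cannot be told apart. Nothing in the labels ties each library to a pool or an animal of its own, and p-values therefore reflect how far libraries of a group differ, which may be technical. The other libraries used below were the 8 from P56 and P1 endothelial cells after myocardial infarction (MI) and the 24 from sham fibroblasts, leukocytes and cardiomyocytes of the same ages.

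Cardiac endothelium lines the coronary arteries, capillaries and veins, the lymphatic vessels and, as endocardium, the chambers. In the first weeks after birth the coronary bed still grows by division and sprouting of its cells, under vascular endothelial growth factor (VEGF), Notch, bone morphogenetic protein (BMP) and apelin signals, and lays down its own basement membrane. The adult capillary bed is known for taking up fatty acids for the heart muscle, for holding platelets, leukocytes and plasma back, and for very slow turnover. Over the same weeks the heart muscle also turns from glucose and lactate to fatty acids as its main fuel.

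The values are read counts as scaled by the authors, who named them CPM, in 8 libraries of 16.3 to 21.6 M recovered reads. A level of 3 reads, the floor used here, was 0.112 to 0.151 CPM in them. Scaled libraries did not share a total: these 8 summed to 777508 to 823057 CPM. P56 sham cardiomyocyte libraries summed to 1.93e+06 to 2.63e+06 CPM and those of P1 to 895200 to 1.27e+06 CPM. Shares of a cardiomyocyte level given below depend on this scaling. The summed level of 22 endothelial identity and junction genes was 16441 to 19138 CPM in P56 libraries and 13906 to 16843 CPM in P1 libraries, and the pan-leukocyte markers summed to 14.0 to 19.2 CPM in P56 libraries and 6.90 to 36.1 CPM in P1 libraries, so the labelled cell type was borne out at both ages. Muscle RNA differed between the ages. The 15 cardiomyocyte markers summed to 22984, 15799, 14812 and 10077 CPM in P56 libraries, against 896, 939.7, 885 and 2754 CPM in P1 libraries, a mean log2 difference of 3.67 (exact permutation test, two-sided, p = 0.0286, the smallest that 4 against 4 libraries can give, and 0.0571 after adjustment over 14 marker sums). All 15 of them were called higher, with fold changes on the log2 scale of up to 4.19 ± 0.45 (SE) for Ttn, the giant sarcomere spring, and 4.08 ± 0.33 for Mb, myoglobin.

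P1 sham replicate 4 stood apart from the other P1 sham libraries. Its cardiomyocyte markers summed to 2754 CPM (885.0 to 939.7 CPM in the others), its fibroblast markers to 4086 CPM (1209 to 1741 CPM) and its macrophage markers to 115 CPM (24.9 to 35.8 CPM). In the P1 libraries after MI the same sums were 890.0 to 1963 CPM, 2418 to 4604 CPM and 40.9 to 113 CPM, and P1 MI replicate 4 had the lowest of them for cardiomyocytes and fibroblasts. Whether labels were exchanged was not tested, and counts that change without P1 sham replicate 4 are given with and without it. Markers of pericytes and smooth muscle (mural cells) summed to 3393 to 4653 CPM in P56 libraries and 1747 to 1924 CPM in P1 libraries, and 11 of their 13 genes were called higher. Red cell markers ran the other way, with 11.03 to 122 CPM in P56 libraries and 375 to 438 CPM in P1 libraries, as did epicardial markers with 42.5 to 70.9 CPM and 114 to 138 CPM. In bulk RNA, fewer cells of a type and less RNA per cell cannot be told apart.

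**Figure D1:**
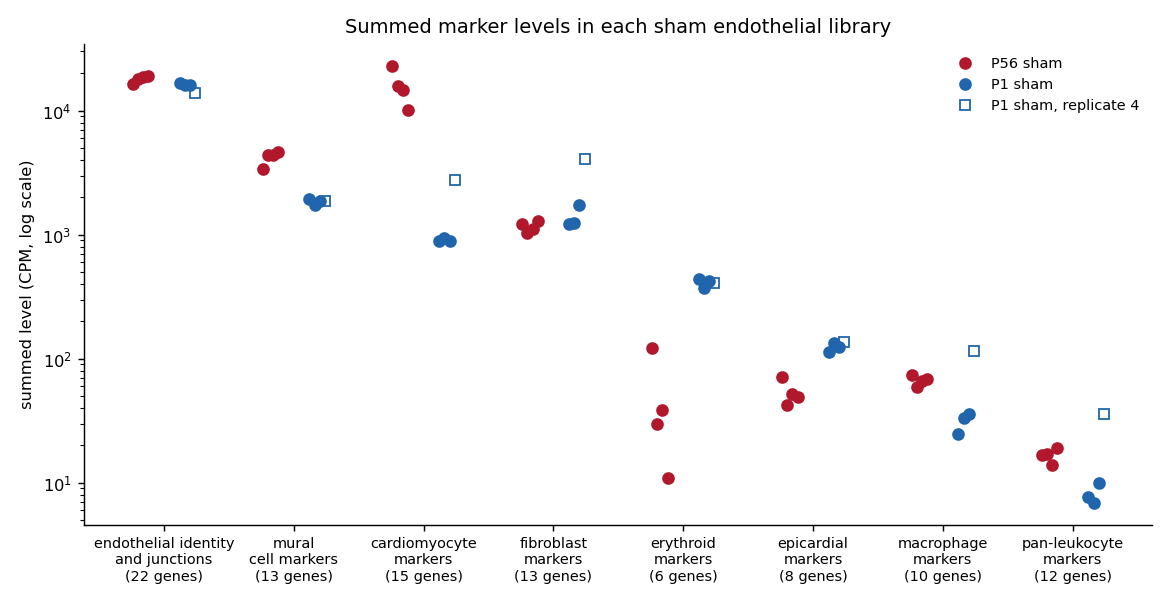
Summed level in CPM (log axis) of 8 lists of marker genes in each of the 4 P56 sham libraries (red, left) and the 4 P1 sham libraries (blue, right), with P1 sham replicate 4 as an open square. Cardiomyocyte and mural markers were higher in every P56 library, and the open square lies above the other P1 libraries for cardiomyocyte, fibroblast, macrophage and pan-leukocyte markers.

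Most of the genes tested differed with age. Of 15706 genes tested, 5279 were called higher at P56 (33.6%) and 4599 lower (29.3%), a total of 9878 (62.9%), by limma on log2(CPM + 0.5) with Benjamini-Hochberg adjusted p under 0.05 over all genes. The median log2 fold change of all genes was 0.05, and 3067 of the called genes, 1591 higher and 1476 lower, differed by at least 2-fold. For 9221 genes (58.7%) the 4 P56 and the 4 P1 libraries did not overlap. These shares are the background for every list that follows, and P1 sham replicate 4 hardly moved them: without it, 5049 genes were called higher and 4383 lower of 15646.

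The 12 largest increases among well measured genes with no overlap were, in order, Fmo2, Ckmt2, Xirp2, Xdh, Hmcn2, Lrtm1, Lnx1, Hrc, Acta1, Zbtb16, Bdh1 and Tcap. Of these, Ckmt2 (mitochondrial creatine kinase of striated muscle), Xirp2, Lrtm1, Hrc, Acta1, Bdh1 and Tcap stood at 0.824 to 12.7% of their level in P56 sham cardiomyocytes, beside a range of 1.12 to 36.4% for the 15 cardiomyocyte markers, and the part of muscle RNA in their increase was not tested. The upper end of that range was Ttn alone. The next marker was Ryr2 at 10.5%, and the median marker stood at 2.62%. The other 5 of the 12 increases stood higher beside the muscle: Fmo2 was at 15.1 times, Xdh at 6.20 times, Hmcn2 at 2.42 times and Lnx1 at 1.50 times its level in P56 cardiomyocytes, and Zbtb16 at 0.876 times. In P56 endothelial cells and P56 fibroblasts, Fmo2 had means of 389 and 352 CPM, Xdh 853 and 420 CPM and Lnx1 55.7 and 3.75 CPM. Beside fibroblasts, Hmcn2 stood far lower, with a mean of 54.5 CPM in P56 endothelial cells and 1884 CPM in P56 fibroblasts, where its log2 fold change with age was 6.40 ± 0.35, and Zbtb16 had 83.5 CPM in P56 endothelial cells and 120.1 CPM in P56 fibroblasts. The part of fibroblast RNA in their increase was not tested. Zbtb16, a zinc finger factor also called PLZF, changed by 4.51 ± 0.56 (SE) on the log2 scale, or by 5.15 without P1 sham replicate 2, the highest P1 library at 12.1 CPM.

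Fmo2, a flavin-containing monooxygenase that oxidises xenobiotics, had the largest of these increases. It was at 349.7, 399, 374 and 433 CPM in P56 libraries, against 3.25, 7.31, 5.19 and 5.50 CPM in P1 libraries. The lowest P56 library lay far above the highest P1 library, and the log2 fold change was 6.11 ± 0.20 (SE, adjusted p = 1.53e-12). Xdh encodes xanthine dehydrogenase, an enzyme of purine breakdown, which can also yield superoxide. Its level was 560.0, 969, 926 and 957 CPM in P56 libraries, against 15.1, 18.3, 13.1 and 16.7 CPM in P1 libraries, 54.0-fold higher in the means. Lnx1, a ubiquitin ligase that binds the Notch inhibitor Numb, had 45.3 to 65.8 CPM in P56 libraries, against 0.891 to 1.63 CPM in P1 libraries.

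Restricting the same order to genes whose P56 level was higher in endothelial cells than in the other 3 sham populations put Slc1a1, Rasa4 and Timp4 behind these. Slc1a1, a transporter of glutamate and cysteine, had 9.82, 14.3, 17.8 and 16.6 CPM in P56 libraries and 0.224, 0.452, 0.194 and 0.258 CPM in P1 libraries (log2 fold change 4.25 ± 0.18, or 5.64 by edgeR on recovered reads, since the 0.5 CPM added before taking logs pulls in the change of genes this low). Rasa4, a GTPase-activating protein of Ras, rose by 3.46 ± 0.16 and Timp4, an inhibitor of matrix metalloproteinases, by 3.39 ± 0.30 on the log2 scale. Further down that order came Dnah3, an axonemal dynein chain (3.32), the receptor Gpr17 (3.29), Serpina1b (3.28), Sncg, gamma-synuclein (3.28), Aldh1l1, a folate enzyme (3.27), and Klra9 (3.23). Serpina1b and Klra9 have near-identical copies elsewhere in the genome, so their reads may be split and their values are uncertain.

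The largest decreases, after Xist, were Sox11, Hspa1a, H19, Tmem255a, Hspa1b, Hist1h1b, Adamts4, Il6, Top2a, Dusp2 and Hist1h3b. Sox11 is a transcription factor of embryonic tissues and had 0.252 to 0.749 CPM in P56 libraries, against 45.4 to 62.6 CPM in P1 libraries (log2 fold change -5.76 ± 0.28, adjusted p = 8.23e-11). Tmem255a was at 6.91, 7.22, 5.03 and 5.51 CPM in P56 libraries, against 243, 213, 202 and 188 CPM in P1 libraries, with no overlap. Adamts4, a protease that cuts the proteoglycans aggrecan and versican, fell by 4.92 and the phosphatase gene Dusp2 fell by 4.75 on the log2 scale. Among genes highest in P1 endothelial cells, the same order added Stil and Kntc1 (centriole duplication and kinetochore), Igf2, Mki67, Cenpe, Mest, Iqgap3 and Col18a1, most of which recur below.

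**Figure D2:**
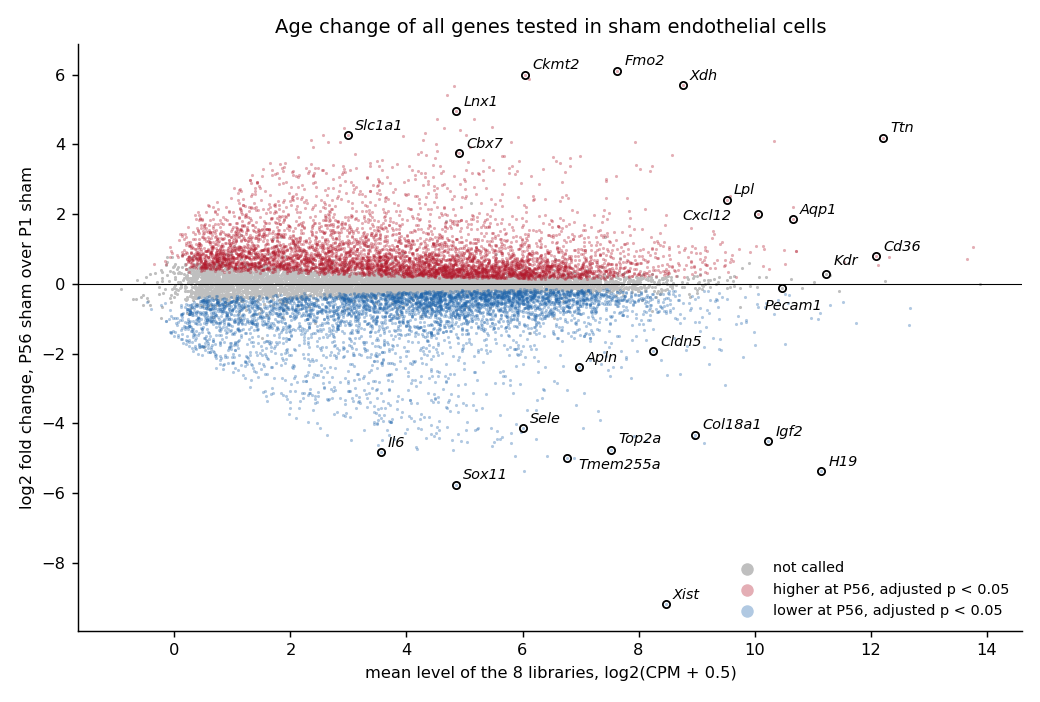
Log2 fold change of P56 sham over P1 sham for each of the 15706 genes tested, against the mean level of the 8 libraries on the log2(CPM + 0.5) scale. Red genes (5279) were called higher at P56, blue genes (4599) lower and grey genes were not called, and 24 genes are named, from Fmo2 at 6.11 to Xist at -9.18.

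The genes that define an endothelial cell were kept at both ages, with shifts in either direction. Of 22 identity and junction genes, 7 were called higher and 7 lower, with a median log2 fold change of 0.02, close to that of all genes. Pecam1, the antigen of the sort, was at 1368 ± 104 CPM in P56 libraries and 1487 ± 103 CPM in P1 libraries (SD, n = 4 each) and was not called. Jam2, a junctional adhesion molecule, had 704, 720.3, 687 and 761 CPM in P56 libraries, against 257, 245, 234 and 216 CPM in P1 libraries (1.59 ± 0.10), and Ptprb, the phosphatase that restrains Tie2 and VE-cadherin signalling, rose by 0.95 ± 0.11 on the log2 scale. Vwf, the platelet-binding multimer stored in Weibel-Palade bodies, rose by 1.09 ± 0.22. In the other direction the sialomucin Cd34 had 473 to 567 CPM in P56 libraries, against 1037 to 1236 CPM in P1 libraries, and Mcam, which pericytes share, had 149 to 265 CPM in P56 libraries, against 649.6 to 765 CPM in P1 libraries. The tight junction gene Cldn5 had 309, 95.6, 80.4 and 87.1 CPM in P56 libraries, against 501, 501, 501 and 349.6 CPM in P1 libraries. P56 replicate 1 and P1 sham replicate 4 lay next to each other across the gap while the other libraries of the groups lay far apart, and the log2 fold change of -1.93 ± 0.32 was -2.38 without P56 replicate 1. Ocln, of the same junctions, fell by 1.30, while Tjp1, which encodes the scaffold ZO-1, was not called (-0.09 ± 0.10). The junctional cadherin Cdh5 fell by 0.54, less than 2-fold.

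Genes of vessel subtypes changed in both directions. Of the arterial genes 3 were called higher and 8 lower of 19 (median -0.19): Gja5, the gap junction protein connexin 40, had 29.7 to 42.6 CPM in P56 libraries, against 63.0 to 92.6 CPM in P1 libraries, and the netrin receptor gene Unc5b had 145 to 194 CPM in P56 libraries, against 287 to 402 CPM in P1 libraries. The increases among them were Stmn2, Nrp1 and Hey2, at 0.90, 0.56 and 0.34. Among 12 venous genes 5 were higher and 4 lower (4 and 4 without P1 sham replicate 4, and 2 lower without P56 replicate 3), with Nr2f2, the venous fate factor COUP-TFII, higher by 0.47 ± 0.10. The endocardial list had 2 higher and 7 lower of 12 (median -0.60). Its decreases were led by Cdh11, a mesenchymal cadherin, with 72.9 to 92.8 CPM in P56 libraries, against 213 to 303 CPM in P1 libraries, and Tmem100, a target of BMP signalling, with 4.02 to 7.40 CPM in P56 libraries, against 16.4 to 19.4 CPM in P1 libraries, whereas Wnt9b (1.48 ± 0.22) and Bmp6 (1.17 ± 0.15) rose. Lymphatic genes were called in 3 of 9 cases. Nts, neurotensin, which is strongly made by lymphatic endothelium, had 4.78 to 8.41 CPM in P56 libraries, against 39.0 to 48.1 CPM in P1 libraries, while Prox1, the lymphatic master factor, was not called at -0.62 ± 0.27.

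Among transcription factors of the endothelial and blood lineages, decreases outnumbered increases, with 14 called lower and 4 higher of 29 (15 and 4 without P1 sham replicate 4), beside 29.3% and 33.6% of all genes. The decreases held the SoxC gene Sox4, with 24.4 to 31.3 CPM in P56 libraries, against 65.4 to 84.5 CPM in P1 libraries, Meox1, with 20.8 to 42.0 CPM in P56 libraries, against 58.3 to 80.1 CPM in P1 libraries, and the haematopoietic partners Lyl1 and Lmo2, which fell by 0.77 and 0.54. Gata2, Sox18, Nr2f2 and Meox2 were the called increases, at 0.65, 0.65, 0.47 and 0.27. The ETS factors Erg (-0.09 ± 0.10) and Fli1 (0.03 ± 0.07) and the flow-responsive Klf2 (-0.24 ± 0.34) and Klf4 (0.17 ± 0.24) were not called.

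**Figure D3:**
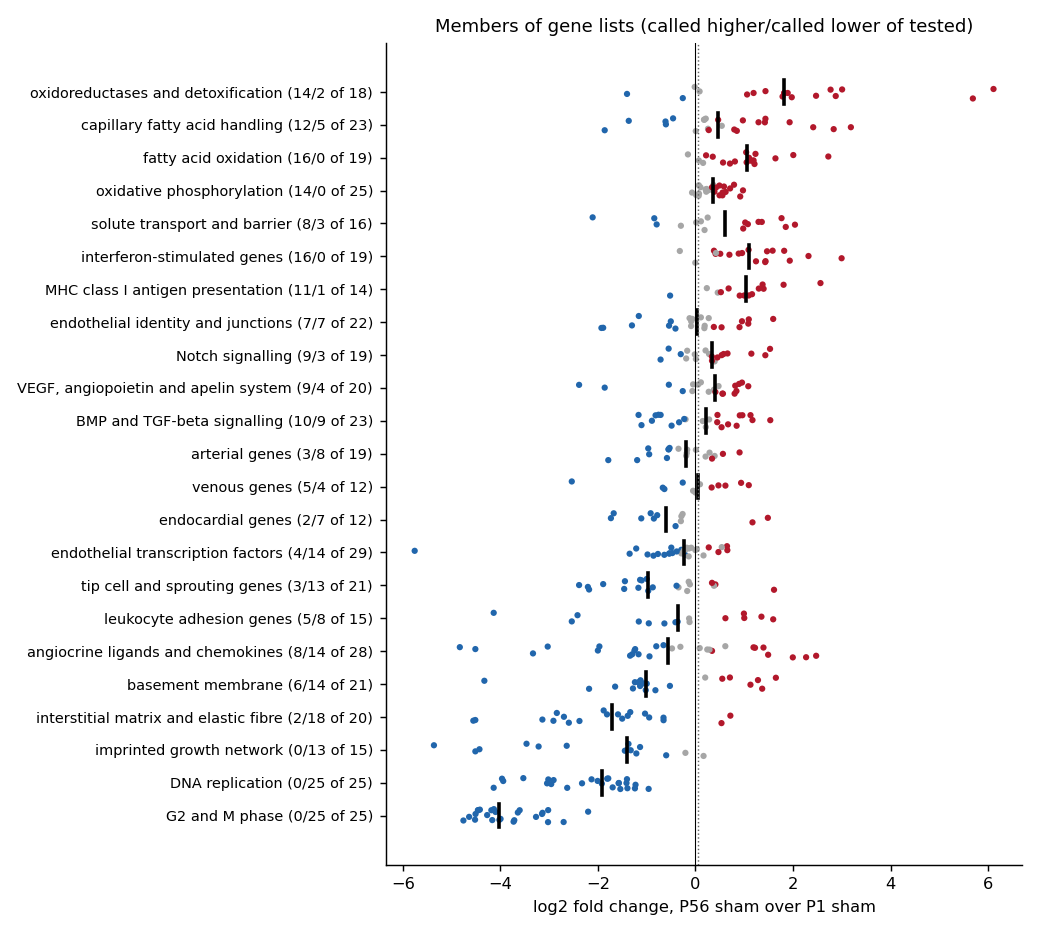
Log2 fold change of P56 sham over P1 sham (horizontal axis) of every tested member of 23 gene lists, with called increases in red, called decreases in blue, genes not called in grey and the median as a black bar; the dotted line is the median of all genes. The medians run from 1.82 for oxidoreductases to -4.02 for genes of the G2 and M phases.

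Genes of vessel sprouting were lower in the adult. Of 21 genes of tip cells, the cells that lead a sprout, 13 were called lower and 3 higher, with a median of -0.97. Apln, the ligand apelin, had 40.6, 45.7, 34.7 and 37.4 CPM in P56 libraries, against 243, 192, 225 and 179 CPM in P1 libraries. The groups did not overlap, and the log2 fold change was -2.39 ± 0.21 (adjusted p = 4.72e-08). Its receptor gene Aplnr was not called, at -0.05 ± 0.20. The basement membrane linker gene Nid2 (-2.18 ± 0.17) and the receptor gene Unc5b (-0.97 ± 0.14) also fell. Ramp3, a co-receptor for adrenomedullin, went the other way with 38.6 ± 4.40 CPM in P56 libraries and 12.3 ± 1.74 CPM in P1 libraries (SD, n = 4 each), as did Pdgfb and Angpt2 by 0.34 and 0.41. Dll4, the Notch ligand of tip cells, and Esm1 were not called (-0.17 ± 0.10 and -0.14 ± 0.21).

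The VEGF, angiopoietin and apelin list had 9 genes called higher and 4 lower of 20. Among the ligands, Vegfc and Vegfb rose by 0.84 ± 0.13 and 0.82 ± 0.14, and Vegfa fell by 0.55. Of the receptors, Kdr (VEGFR2) was at 2345, 2611, 2925 and 2671 CPM in P56 libraries and 2399, 2176, 2292 and 1881 CPM in P1 libraries; the groups overlapped and it was not called (0.27 ± 0.15). Flt1 (VEGFR1, which binds VEGF-A with little signalling of its own) rose by 1.08 ± 0.12, the co-receptor gene Nrp1 by 0.56 ± 0.09, and the angiopoietin receptor gene Tek was not called (0.11 ± 0.08).

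Of 19 Notch genes, 9 were called higher and 3 lower (10 and 3 without P1 sham replicate 4). Notch3 (1.53 ± 0.17) and Heyl (1.43 ± 0.20), a receptor and a target gene that mural cells also express, rose beside the summed mural markers given above, and whether those cells carried the change was not tested. The ligand genes Jag2 and Dll1 rose by 0.54 ± 0.11 and 0.66 ± 0.13 and the glycosyltransferase gene Lfng, which tunes ligand choice, by 1.15 ± 0.17. The receptors Notch1 (0.01 ± 0.13) and Notch4 (0.21 ± 0.18) were not called, and the feedback inhibitor gene Nrarp fell by 0.55.

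Within BMP and TGF-beta signalling, 10 genes were higher and 9 lower of 23. The BMP9 receptor gene Acvrl1 (ALK1) had 183 to 256 CPM in P56 libraries, against 85.9 to 108 CPM in P1 libraries (1.13 ± 0.11). Eng, its co-receptor, rose by 0.54 ± 0.12, the ligand gene Bmp6 by 1.17 ± 0.15, the transducer Smad9 by 1.53 ± 0.21 and the target Id1 by 0.96 ± 0.14. On the TGF-beta side the receptor gene Tgfbr2 had 196 to 216 CPM in P56 libraries, against 340.5 to 404 CPM in P1 libraries (-0.89 ± 0.07, adjusted p = 2.14e-08), and Tgfbr1, Tgfb1 and Tgfb2 fell by 0.49, 0.76 and 1.11. Tgfb3 was an exception, at 0.84 ± 0.13, and the BMP ligand genes Bmp2 and Bmp4 fell by 1.17 and 0.71.

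Enzymes that oxidise and detoxify small molecules were higher in the adult endothelium. Of 18 such genes 14 were called higher and 2 lower (median 1.82), 1 being lower without P56 replicate 2 or 3 or P1 sham replicate 1 or 3. The median member stood at 83.7% of its level in P56 cardiomyocytes, and 9 of the 18 were higher in endothelial cells. The list also rose with age in the other sham populations, with medians of 1.75 in fibroblasts, 1.16 in leukocytes and 1.28 in cardiomyocytes. Beside Fmo2 and Xdh, Ephx1 (microsomal epoxide hydrolase) had 111 to 162 CPM in P56 libraries, against 17.1 to 19.3 CPM in P1 libraries, and Aldh2 (mitochondrial aldehyde dehydrogenase) had 164 to 213 CPM in P56 libraries, against 30.7 to 35.6 CPM in P1 libraries. Gstm1, Sod3 (extracellular superoxide dismutase), Cyp2d22 and Cyp4b1 rose by 1.82 ± 0.09, 2.77 ± 0.16, 1.97 ± 0.15 and 1.79 ± 0.14. Gsta4, a glutathione transferase for lipid peroxidation products, fell by 1.40, and Cat (catalase) was not called (-0.02 ± 0.08).

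Genes for handling fatty acids at the capillary wall were mixed, with 12 higher and 5 lower of 23 (median 0.47). Lpl, lipoprotein lipase, which frees fatty acids from circulating lipoproteins, was at 1313, 1411, 1132 and 1089 CPM in P56 libraries, against 230.0, 253, 228 and 212 CPM in P1 libraries. Every P56 library was above every P1 library, with a log2 fold change of 2.41 ± 0.14 (adjusted p = 8.38e-10). Gpihbp1, which anchors that enzyme to the capillary lumen, was not called at 391 ± 69.1 CPM in P56 libraries and 336 ± 37.3 CPM in P1 libraries (SD, n = 4 each). The fatty acid transporter Cd36 rose by 0.80 ± 0.16 and the very low density lipoprotein receptor gene Vldlr by 3.19 ± 0.32. Intracellular lipases Lipe (1.42 ± 0.11) and Pnpla2 (0.97 ± 0.11) and the lipid-sensing nuclear receptors Pparg (0.85 ± 0.08) and Ppara (2.83 ± 0.23) rose as well. Fabp5, a fatty acid binding protein, had 34.1 to 46.9 CPM in P56 libraries, against 95.0 to 115 CPM in P1 libraries, and Angptl4, an inhibitor of lipoprotein lipase, had 12.2 to 53.0 CPM in P56 libraries, against 69.1 to 105 CPM in P1 libraries. The caveolar coat genes Cav1 and Ptrf fell by 0.61 and 0.46, and Fabp4 was not called (0.26 ± 0.11). Of the 12 genes called higher, 6 stood at a share of their P56 cardiomyocyte level within the range of the 15 cardiomyocyte markers, Lpl at 21.1%, Pnpla2 at 13.0%, Vldlr at 8.87%, Acsl1 at 7.99%, Ppara at 6.04% and Slc27a1 at 5.38%, and the part of muscle RNA in their increase was not tested. Lpl and Pnpla2 stood above every marker but Ttn (36.4%), the next marker being Ryr2 at 10.5%.

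**Figure D4:**
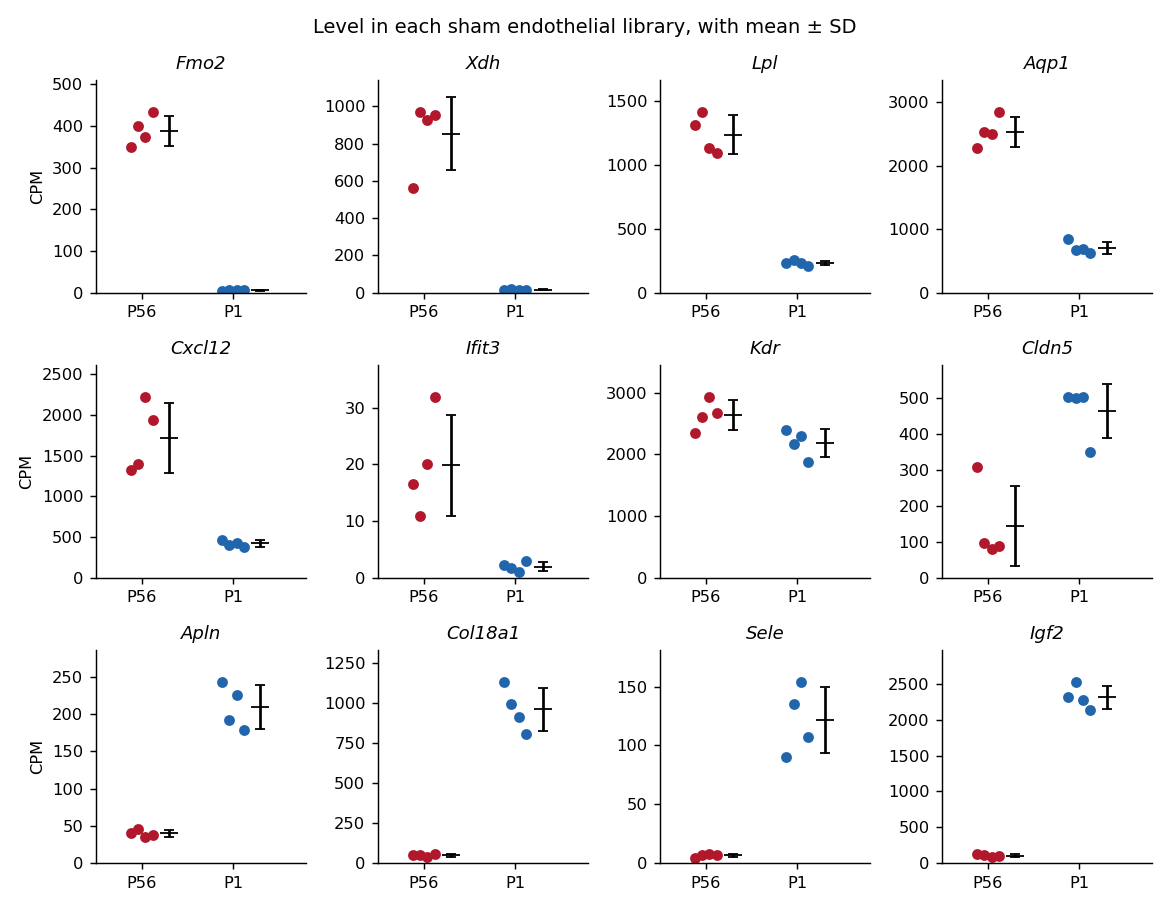
Level in CPM (axes from 0) of 12 genes in each of the 4 P56 (red, left) and 4 P1 (blue, right) sham libraries, with the mean and SD as black bars. Fmo2, Xdh, Lpl, Aqp1, Cxcl12 and Ifit3 lay higher in all P56 libraries, Cldn5, Apln, Col18a1, Sele and Igf2 lower, and the groups overlapped for Kdr.

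Mitochondrial oxidation genes were higher, beside the muscle RNA. In fatty acid oxidation 16 of 19 genes were called higher and 0 lower (14 without P1 sham replicate 4), with a median of 1.05. Examples are Acadm, the medium-chain acyl-CoA dehydrogenase, with 68.8 to 125 CPM in P56 libraries, against 27.6 to 32.6 CPM in P1 libraries, and Ppargc1a, a coactivator of mitochondrial genes, with 7.74 to 17.3 CPM in P56 libraries, against 0.896 to 4.81 CPM in P1 libraries. Oxidative phosphorylation had 14 of 25 higher (12 without that library), led by Sdha (0.97 ± 0.10) and Ndufs1 (0.92 ± 0.11) of complexes II and I. Over P56 replicates 1 to 4 the oxidation genes summed to 1561, 1203, 999 and 805 CPM, in the same order as the cardiomyocyte markers, and the median member stood at 6.27% of its level in P56 cardiomyocytes. For oxidative phosphorylation the median share was 4.21%, against 11.3% at P1, and for the capillary fatty acid genes it was 207% at P56. The cardiomyocyte libraries summed to different CPM totals at P56 and P1, and the part of this scaling in the shares was not tested. The part of muscle RNA in the age changes of these genes was not tested either.

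Glycolysis showed 5 genes higher and 6 lower of 18. Pfkm (1.89 ± 0.17), Hk2 (3.07 ± 0.29) and Ldhb (2.20 ± 0.20), isoforms that heart muscle also uses, rose. They stood at 3.96%, 5.95% and 2.89% of their level in P56 cardiomyocytes. All 5 called increases had a share within the range of the 15 cardiomyocyte markers, whose upper end was Ttn alone. Whether muscle RNA carried these increases was not tested. The general isoforms Ldha, Pgk1, Gapdh and Pkm fell by 0.76, 1.00, 0.81 and 0.50, and so did the glucose transporter gene Slc2a1 (GLUT1), which had 10.7 to 17.9 CPM in P56 libraries, against 22.0 to 28.8 CPM in P1 libraries. Gapdh and Pgk1 were read at low levels, with means of 14.0 and 3.51 CPM at P56 and 24.2 and 7.48 CPM at P1. Whether reads shared with pseudogenes affected these values was not tested. Pfkfb3, the activator of glycolysis in sprouting endothelium, was not called (-0.10 ± 0.19).

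Transport and barrier genes were higher in 8 cases and lower in 3 of 16. The water channel gene Aqp1 was at 2274, 2534, 2493 and 2843 CPM in P56 libraries, against 848, 673, 680.4 and 619.7 CPM in P1 libraries, a 3.60-fold difference of the means without overlap. Fcgrt, the receptor that recycles immunoglobulin G and albumin, rose by 1.36 ± 0.07, the organic anion transporter gene Slco1a4 by 1.76 ± 0.20, and the efflux pump gene Abcb1a by 0.98 ± 0.14. Slc7a5, the large neutral amino acid transporter, had 4.53 to 5.98 CPM in P56 libraries, against 19.8 to 27.6 CPM in P1 libraries. In the hypoxia list (8 higher and 4 lower of 15, 7 and 4 without P1 sham replicate 4) the 2 oxygen-regulated subunits went apart: Epas1 (HIF-2alpha) had 769.7 to 1026 CPM in P56 libraries, against 394 to 482 CPM in P1 libraries, and Hif1a had 149 to 164 CPM in P56 libraries, against 218 to 273 CPM in P1 libraries. P4ha2, a collagen prolyl hydroxylase, rose by 1.86 ± 0.17 and Adm, adrenomedullin, fell by 1.10.

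Division genes fell as a block. All 25 mitotic (G2 and M phase) genes and all 25 of DNA replication were called lower, with medians of -4.02 and -1.92. Cdk1, the kinase that drives mitosis, had 2.51, 6.36, 2.31 and 1.79 CPM in P56 libraries, against 97.3, 76.4, 88.0 and 77.0 CPM in P1 libraries (-4.64 ± 0.30, adjusted p = 1.56e-09). Its partner Ccna2 had 2.56 to 7.12 CPM in P56 libraries, against 78.3 to 104 CPM in P1 libraries, and the spindle checkpoint genes Cdc20 and Bub1 fell by 3.02 and 4.42. Mki67, the Ki-67 antigen, had 17.9, 60.5, 15.1 and 16.1 CPM in P56 libraries, against 598, 464, 549.8 and 509 CPM in P1 libraries. P56 replicate 2 was the highest of its group here, and also for the summed G2 and M genes (101, 239, 80.1 and 86.9 CPM in P56 libraries, against 2420.2, 1849, 2200.3 and 1989 CPM in P1 libraries), but lay far below every P1 library. For replication, Rrm2 (a subunit of ribonucleotide reductase) fell by 3.94, Uhrf1 (which guides Dnmt1 to newly made DNA) by 3.97, Mcm2 (the replicative helicase) by 2.63 and Pcna (the polymerase clamp) by 1.92.

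The promoters of Cdk1 and Top2a, a kinase and a topoisomerase of this block, are shown because mitotic genes are known to carry CCAAT boxes and the cell cycle homology region (CHR). The RefSeq sequences give the 250 bases before the start site on the gene's strand (GRCm38.p6), Cdk1 from chr10:69352913-69353162 and Top2a from chr11:99024190-99024439, both on the minus strand, with each CCAAT and each TTTGAA (the CHR), or its reverse complement, in capitals.
Cdk1: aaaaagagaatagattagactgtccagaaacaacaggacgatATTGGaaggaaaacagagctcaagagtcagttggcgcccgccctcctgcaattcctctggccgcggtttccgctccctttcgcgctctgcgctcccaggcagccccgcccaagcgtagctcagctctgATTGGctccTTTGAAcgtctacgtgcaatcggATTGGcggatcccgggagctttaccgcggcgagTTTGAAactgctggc
Top2a: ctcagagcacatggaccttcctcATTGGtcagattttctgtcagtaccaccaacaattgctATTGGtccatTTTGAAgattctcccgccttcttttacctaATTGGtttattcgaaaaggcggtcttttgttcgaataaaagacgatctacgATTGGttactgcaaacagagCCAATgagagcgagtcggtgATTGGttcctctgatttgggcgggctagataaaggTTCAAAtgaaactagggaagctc
No match overlapped another in these windows. Searched on both strands, CCAAT was found for 17 of 20 G2 and M genes with a promoter in the table (85%) and 14 of 20 replication genes (70%), against 39.8% of 10431 tested genes, and TTTGAA for 8 of 20 (40%) and 3 of 20 (15%), against 12.7%. A match describes letters in the window, not binding.

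Brakes and entry factors of the cell cycle included 4 genes called higher and 6 lower of 15 (3 and 6 without P1 sham replicate 4). E2f1 fell by 3.57, Ccnd1 (cyclin D1) by 1.04 and Cdk4 by 1.22, and so did the inhibitor genes Cdkn2c and Cdkn2d by 2.14 and 1.49. Of the pocket proteins, Rbl1 (p107) fell by 1.13, whereas Rb1 and Rbl2 (p130, the form of quiescent cells) rose by 0.46 ± 0.09 and 0.73 ± 0.09. Cdkn1a (p21) was not called (-0.68 ± 0.45) and Cdkn1b (p27) rose by 0.20 ± 0.07, a call lost without P56 replicate 4 (0.16) or P1 sham replicate 4 (0.15).

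Fetal growth genes were at much lower levels. Of 15 genes of the imprinted growth network 13 were called lower and 0 higher (median -1.39). Igf2, the fetal growth factor, had 119, 114, 78.9 and 95.7 CPM in P56 libraries, against 2321, 2522, 2273 and 2134 CPM in P1 libraries (-4.51 ± 0.15), 22.7-fold lower in the means. H19, the untranslated RNA that shares its imprinting centre, was at 86.3 to 132 CPM in P56 libraries, against 4042 to 4737 CPM in P1 libraries, and Mest at 29.7 to 56.9 CPM in P56 libraries, against 806 to 1077 CPM in P1 libraries. Igf2r, which clears that growth factor, fell by 1.37 and Plagl1, a zinc finger factor of the network, by 3.46. The RNA-binding proteins of fetal tissues went the same way: Igf2bp2 had 1.75 to 2.58 CPM in P56 libraries, against 22.9 to 28.7 CPM in P1 libraries and Igf2bp3 had 4.93 to 6.31 CPM in P56 libraries, against 28.0 to 28.9 CPM in P1 libraries, while Igf2bp1 was near the floor at P56 with 0 to 0.0956 CPM in P56 libraries, against 5.89 to 8.26 CPM in P1 libraries. In the list of fetal LIN28, IGF2BP and HMGA genes, 6 of 7 tested genes were lower and 0 higher. Its lowest member was Sox11, which is also counted among the transcription factors above.

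Writers and readers of DNA and histone methylation moved in both directions. In this group 10 genes were called lower and 3 higher of 15. The maintenance methyltransferase gene Dnmt1 had 77.7 to 97.6 CPM in P56 libraries, against 206 to 242 CPM in P1 libraries, and the polycomb methyltransferase gene Ezh2 had 13.0 to 15.2 CPM in P56 libraries, against 45.0 to 50.9 CPM in P1 libraries. Its homologue Ezh1, used by resting cells, had 141 to 189.8 CPM in P56 libraries, against 61.9 to 72.3 CPM in P1 libraries. Cbx7, a polycomb reader that binds the histone mark these enzymes write, had 52.4, 56.3, 53.6 and 59.4 CPM in P56 libraries, against 3.03, 4.93, 3.56 and 3.35 CPM in P1 libraries; the groups lay far apart (3.75 ± 0.17, adjusted p = 6.36e-11).

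Matrix genes were mostly lower at P56, with single chains of the basement membrane higher. Of 21 basement membrane genes 14 were called lower and 6 higher (median -1.02). Col18a1, the source of the angiogenesis inhibitor endostatin, had 48.8, 46.9, 37.6 and 56.8 CPM in P56 libraries, against 1128, 995, 914 and 808 CPM in P1 libraries, 20.2-fold lower in the means. Collagen IV chains Col4a1 and Col4a2 fell by 1.17 and 1.14 while Col4a3 and Col4a4 rose by 1.28 ± 0.22 and 1.13 ± 0.20. Among laminins, Lama4 had 511 to 706 CPM in P56 libraries, against 1199 to 1309.8 CPM in P1 libraries and Lama5 had 301 to 395 CPM in P56 libraries, against 96.1 to 127 CPM in P1 libraries, the 2 alpha chains of the laminins in vessel walls. The partner chains Lamb1 and Lamc1 fell by 1.24 and 1.08 and Lamb2 rose by 0.71 ± 0.10.

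Of 20 genes of interstitial matrix and elastic fibres, 18 were lower and 2 higher (median -1.70). The increases were Mgp (0.72 ± 0.23) and Mmrn2 (0.53 ± 0.19), the second not called without P56 replicate 3 (0.44) or 4 (0.39). Eln, elastin, had 116 to 206 CPM in P56 libraries, against 1046 to 1427 CPM in P1 libraries, the fetal fibrillin gene Fbn2 had 1.41 to 3.21 CPM in P56 libraries, against 46.0 to 80.3 CPM in P1 libraries and Tnc, tenascin C, had 2.57 to 5.45 CPM in P56 libraries, against 88.5 to 134 CPM in P1 libraries. The versican gene Vcan fell by 3.14, the crosslinking enzyme gene Lox by 2.60 and Fn1, fibronectin, by 1.88. The list summed to 2643, 2834, 2849 and 3157 CPM in P56 libraries, against 5943, 6512, 7471 and 10355 CPM in P1 libraries, the highest being P1 sham replicate 4, whose fibroblast markers were also the highest; without it the counts were 18 lower and 2 higher with a median of -1.44.

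Vasoactive and flow-linked genes were higher in 5 and lower in 8 of 20 cases. Nos3, the endothelial nitric oxide synthase, was not called (-0.09 ± 0.16), whereas Ddah1 and Ddah2, which clear its inhibitor dimethylarginine, had 3.92 to 5.86 CPM in P56 libraries, against 19.4 to 27.3 CPM in P1 libraries, and 56.1 to 63.2 CPM in P56 libraries, against 153 to 185 CPM in P1 libraries. The constrictor gene Edn1 (endothelin 1) fell by 1.30 and its receptor gene Ednrb by 0.82. Ace, which makes angiotensin II, rose by 0.99 ± 0.15 and Ptgs1 (cyclooxygenase 1) by 0.84 ± 0.11.

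In haemostasis 5 genes were higher and 8 lower of 15. The thrombin receptor gene F2r had 116 to 140.3 CPM in P56 libraries, against 333 to 409 CPM in P1 libraries (-1.49 ± 0.11), and Thbd (thrombomodulin, which turns thrombin towards protein C) had 603 to 856 CPM in P56 libraries, against 362 to 423 CPM in P1 libraries. The protein C receptor gene Procr fell by 1.33, the tissue factor inhibitor gene Tfpi by 0.90, and the plasminogen activator genes Plat and Plau by 1.13 and 1.38. Nt5e, the ectoenzyme that makes adenosine, rose by 2.04 ± 0.17.

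Leukocyte adhesion genes were mixed, with 5 higher and 8 lower of 15. Sele (E-selectin), made by activated endothelium, had 4.54, 6.79, 7.29 and 6.97 CPM in P56 libraries, against 90.1, 135, 154 and 107 CPM in P1 libraries. P1 levels were all higher and the log2 fold change was -4.14 ± 0.29 (adjusted p = 4.23e-09). The P-selectin gene Selp fell by 2.54, whereas the junctional molecules Jam2 and Jam3, the sialomucin gene Podxl and the membrane-bound chemokine gene Cx3cl1 rose by 1.59 ± 0.10, 1.35 ± 0.12, 0.99 ± 0.14 and 1.00 ± 0.13.

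Signals that the endothelium sends to its neighbours changed in both directions, 8 higher and 14 lower of 28 (9 and 12 without P1 sham replicate 4). Cxcl12, the ligand of CXCR4, had 1329, 1396, 2215 and 1934 CPM in P56 libraries, against 469.9, 405, 432 and 381 CPM in P1 libraries (2.00 ± 0.16). Fgf1 rose by 2.47 ± 0.19 and the alarmin gene Il33 by 2.27 ± 0.20. The decreases beyond Igf2 held Igf1, with 17.9 to 31.7 CPM in P56 libraries, against 89.0 to 106 CPM in P1 libraries, the Wnt inhibitor gene Dkk2, with 0.654 to 1.14 CPM in P56 libraries, against 3.72 to 6.00 CPM in P1 libraries, and Il6, with 0.0478 to 0.453 CPM in P56 libraries, against 15.8 to 28.4 CPM in P1 libraries. In P1 sham fibroblasts and leukocytes Il6 stood higher, at means of 70.8 and 75.3 CPM, against 22.2 CPM in P1 endothelial cells. With age it fell there by 6.02 and 6.87 on the log2 scale, and by 4.68 in cardiomyocytes, against 4.83 in endothelial cells.

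Interferon-stimulated genes were higher at P56 in 16 of 19 cases and lower in 0 (median 1.09). Their age medians in the other sham populations were 0.99 in fibroblasts, -0.09 in leukocytes and -0.82 in cardiomyocytes. Ifit3, an antiviral tetratricopeptide protein, had 16.5, 10.9, 20.1 and 31.8 CPM in P56 libraries, against 2.20, 1.64, 1.08 and 2.96 CPM in P1 libraries. The groups did not overlap (3.00 ± 0.34, adjusted p = 8.80e-07). Ifit1 rose by 2.32 ± 0.32 and the RNA sensor gene Ifih1 (MDA5) by 1.58 ± 0.12, and Isg15 was not called (-0.32 ± 0.18). The promoters of Ifit3 and Ifit1 are shown because such genes are known to be driven through the interferon-stimulated response element (ISRE), whose core (TTTC, any NN, then TTTC again), or its reverse complement, is in capitals together with CCAAT. The windows are as above, both on the plus strand, at chr19:34583279-34583528 for Ifit3 and chr19:34640639-34640888 for Ifit1.
Ifit3: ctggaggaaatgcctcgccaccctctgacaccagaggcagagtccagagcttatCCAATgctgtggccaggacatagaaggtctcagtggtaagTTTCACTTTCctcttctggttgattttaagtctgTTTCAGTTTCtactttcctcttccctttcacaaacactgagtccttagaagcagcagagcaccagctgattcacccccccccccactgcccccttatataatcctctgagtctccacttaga
Ifit1: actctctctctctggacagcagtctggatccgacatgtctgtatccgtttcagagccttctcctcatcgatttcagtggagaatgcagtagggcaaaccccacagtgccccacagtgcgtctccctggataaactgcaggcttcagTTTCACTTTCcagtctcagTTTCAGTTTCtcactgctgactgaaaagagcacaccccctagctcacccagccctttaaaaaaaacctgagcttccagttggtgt
Each holds the core 2 times, starting 156 and 122 bases before the start site in Ifit3 and 104 and 85 bases before it in Ifit1. The core was found for 9 of 17 interferon-stimulated genes with a promoter in the table (52.9%), against 3.09% of tested genes and 1 of 12 genes of class I presentation (8.33%).

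Class I antigen presentation, with 11 of 14 genes higher and 1 lower (median 1.04), went the same way. The age medians of this list were 1.36 in fibroblasts, 0.36 in leukocytes and 0.06 in cardiomyocytes. Tapbp, which loads peptide onto class I molecules, had 220.4 to 290.1 CPM in P56 libraries, against 84.3 to 98.3 CPM in P1 libraries, and the immunoproteasome subunit gene Psmb9 had 33.6 to 48.1 CPM in P56 libraries, against 7.71 to 16.2 CPM in P1 libraries. B2m, the invariant chain, rose by 1.09 ± 0.17 and the chaperone gene Calr fell by 0.52. Class II genes were at low levels, with 5 of 6 higher (6 without P1 sham replicate 4). Cd74, the class II invariant chain, had 10.00, 12.1, 9.56 and 11.1 CPM in P56 libraries, against 0.784, 0.657, 0.542 and 4.51 CPM in P1 libraries. P1 sham replicate 4 was the highest of its group here, as for macrophage and pan-leukocyte markers, whose sums were 59.1 to 74.0 CPM and 14.0 to 19.2 CPM at P56; whether leukocytes carried the class II genes was not tested.

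Immediate early and heat shock genes, which rise within minutes to hours of handling or stress, were lower at P56 in 16 of 18 cases and higher in 0. Fos had 100.3, 50.9, 53.2 and 13.5 CPM in P56 libraries, against 948, 1174, 1108 and 1006 CPM in P1 libraries. The inducible Hsp70 genes Hspa1a and Hspa1b, a near-identical pair whose reads may be shared, had 0.908 to 5.55 CPM in P56 libraries, against 62.3 to 246 CPM in P1 libraries, and 3.77 to 12.5 CPM in P56 libraries, against 119 to 437 CPM in P1 libraries. The list summed to 2301, 1086, 1095 and 899 CPM in P56 libraries, with replicate 1 the highest, and to 4348, 6296, 5324 and 4681 CPM in P1 libraries. The dissociation of the tissue differed between the ages, and its part was not tested.

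Of the sex-linked genes, Xist, which is expressed from the inactive X chromosome of females, was at 0.352 to 1.20 CPM in P56 libraries, against 419.8 to 978 CPM in P1 libraries, and the 4 Y-linked genes rose by 1.13 (Eif2s3y) to 1.52 (Uty) on the log2 scale. Every P1 library held both Xist and Y-linked RNA. Schwann cell markers were higher in 4 of 7 cases and lower in 0. This count was 5 without P1 sham replicate 4 and 2 without P56 replicate 3 or 4, and 1 gene was lower without P1 sham replicate 3 and by edgeR and DESeq2. The lipid droplet gene Plin4, the 1 adipocyte marker tested, rose by 2.86 ± 0.27.

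The same ages were also compared after MI, in 8 other libraries. There 4799 genes were called higher at P56 (30.6%) and 3635 lower (23.1%) of 15706, 53.7% in all. The sham and the MI comparison share no library, but the same fit gave both, so they share each gene's variance estimate. Both called 7208 genes in the same direction, 73.0% of those called in sham and 85.5% of those called after MI, and 48 in opposite directions. Fmo2 had a log2 fold change of 5.60 ± 0.20 after MI, Xdh 5.19 ± 0.17 and Slc1a1 3.35 ± 0.18. Apln was at -1.40 ± 0.21, Col18a1 at -2.12 ± 0.28, Sele at -2.70 ± 0.29 and Igf2 at -3.59 ± 0.15, all with the sign seen in sham. Genes of the G2 and M phases were called lower in 25 cases and higher in 0 of 25, with a median of -2.16. Interferon-stimulated genes were higher in 14 and lower in 0 of 19 cases (median 1.10), and fatty acid oxidation genes in 8 and 1 of 19 (median 0.21). Oxidative phosphorylation had 2 higher and 1 lower of 25 (median -0.01). Whether the age change differed between sham and MI was not tested. Cardiomyocyte markers summed to 4251 to 9366 CPM in P56 libraries after MI and 890.0 to 1963 CPM in P1 libraries after MI, and mural markers to 1959 to 2519 CPM and 1957 to 2512 CPM.

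The age change was set against that of the other sham populations by a test of the difference itself over 32 sham libraries. It differed from fibroblasts for 4235 of 17618 genes (24.0%), from leukocytes for 7232 (41.0%) and from cardiomyocytes for 11419 (64.8%). Without P1 sham replicate 4 these counts were 3863, 7002 and 11199. For 516 of 15621 genes (3.30%) it differed in the same direction from all 3 and the gene was also called in that direction in endothelial cells, higher for 380 (2.43%) and lower for 136 (0.871%). Without P1 sham replicate 4 these were 548, 432 and 116. The other populations were not free of endothelial RNA, and its amount changed with age. The 22 identity genes summed to 2264 to 2690 CPM in P56 fibroblasts and 2175 to 2438 CPM in P1 fibroblasts, 848 to 1112 CPM in P56 leukocytes and 5987 to 7139 CPM in P1 leukocytes, and 1778 to 2749 CPM in P56 cardiomyocytes and 4032 to 6351 CPM in P1 cardiomyocytes. The part of that RNA in these differences was not tested. Among the genes higher in this way were 5 of 13 mural markers and 4 of 15 cardiomyocyte markers, beside 2.43% of all genes. Of both lists, 0 genes were lower in this way. Whether mural and muscle RNA in the endothelial libraries carried such differences was not tested either.

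Ordered by the smallest of the 3 differences, Slc1a1 came first. Its log2 fold change was 4.25 ± 0.18 in endothelial cells, 0.87 ± 0.22 in fibroblasts, -0.31 ± 0.22 in leukocytes and 0.49 ± 0.22 in cardiomyocytes. It was followed by Samd5 (1.45 ± 0.18 in endothelial cells), the retinoic acid synthesising enzyme gene Aldh1a3 (1.60 ± 0.24), Serpina1b, Dnm3os (1.21 ± 0.21), Fmo2 and Gda. Dnm3os lies antisense within Dnm3, and without a stated strand setting of the counting its reads cannot be told from those of its host. Gda, guanine deaminase, which acts in the same pathway as Xdh, had 66.9, 84.1, 112 and 114 CPM in P56 libraries, against 4.37, 7.35, 7.71 and 8.63 CPM in P1 libraries. Mean Gda levels at P56 were 94.3 CPM in endothelial cells, 157 CPM in fibroblasts and 100.6 CPM in leukocytes, and lower in cardiomyocytes. At P1 these means were 7.02 CPM in endothelial cells, 73.9 CPM in fibroblasts, 106 CPM in leukocytes and 16.4 CPM in cardiomyocytes. The log2 fold change of Gda was 3.66 ± 0.19 in endothelial cells, against 1.09 ± 0.35 in fibroblasts, -0.17 ± 0.35 in leukocytes and -0.59 ± 0.35 in cardiomyocytes. Its tested difference from fibroblasts was 2.57 ± 0.49. Fmo2 also rose in fibroblasts, by 3.51 ± 0.27. Dnm3os and Aldh1a3 had P56 means of 95.5 and 7.95 CPM in fibroblasts, against 34.95 and 5.87 CPM in endothelial cells. Slc1a1, Samd5, Serpina1b and Fmo2 had their highest P56 mean in endothelial cells.

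In the other direction came the solute carriers Slc22a23 and Slc43a2, Dapk1, Ppp1r9a and Hpn. Slc22a23 had a log2 fold change of -2.02 ± 0.15 in endothelial cells, 0.90 ± 0.21 in fibroblasts, 0.80 ± 0.21 in leukocytes and 0.87 ± 0.21 in cardiomyocytes. Slc43a2, which carries neutral amino acids as Slc7a5 does, had 16.1, 13.3, 11.6 and 12.6 CPM in P56 libraries, against 24.0, 27.4, 22.6 and 24.4 CPM in P1 libraries (-0.86 ± 0.13). In the other populations its log2 fold change was 2.60 ± 0.20 in fibroblasts, 1.59 ± 0.20 in leukocytes and 1.70 ± 0.20 in cardiomyocytes.

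**Figure D5:**
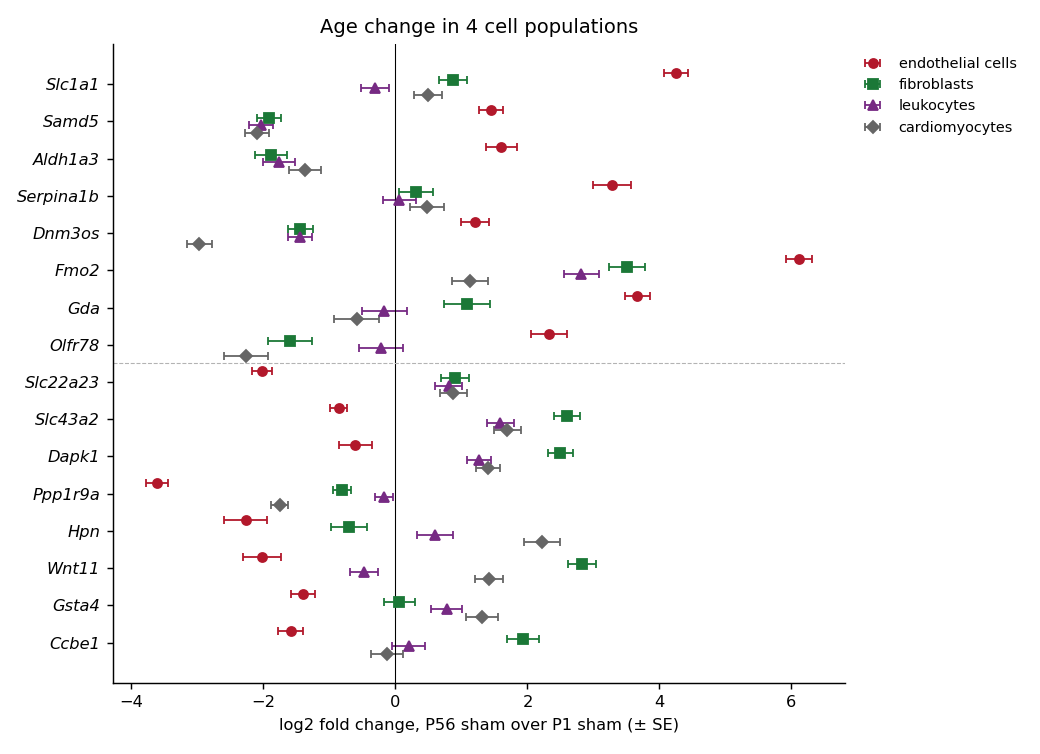
Log2 fold change of P56 sham over P1 sham with its SE for 16 genes in endothelial cells (red circles), fibroblasts (green squares), leukocytes (purple triangles) and cardiomyocytes (grey diamonds). The 8 genes above the dashed line had a more positive fold change in endothelial cells than in each other population, led by Slc1a1 at 4.25, and the 8 below it a more negative one, led by Slc22a23.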

How the data were processed

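Per the labels' protocols, ribosomal RNA was removed and stranded libraries were read as 50-base single ends. Per the submitters' processing notes, the tools were STAR, HTSeq, Trimmomatic and edgeR, with no versions; no source used here says whether counting was by strand. The authors deposited 1 table of 20637 genes in 64 libraries with a normalised signal that they named CPM. Every value of the 8 libraries was a whole multiple of 1 read within 0.01, so reads could be recovered (100% whole). Recovered reads were 16.3 to 21.6 M per library; PCR copies were not marked by molecular identifiers, so the floor of 3 reads covers counting error alone. Of the gene IDs, 20540 of 20637 overlap their gene in GENCODE M21 (GRCm38).

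Genes with at least 1 CPM in at least 4 of the 16 endothelial libraries (15706) were fitted with limma 3.58.1 (R 4.3.3) on log2(CPM + 0.5) with a variance trend, sham and MI together; adjusted p-values are Benjamini-Hochberg over all genes tested. Differences between populations were contrasts over the 32 sham libraries, and marker sums were compared with exact permutation tests (scipy 1.17.1). The edgeR 4.0.16 quasi-likelihood test and DESeq2 1.42.0 ran on recovered reads as alternatives, and the calls were tested on simulated data. Promoters came from RefSeq (GRCm38.p6), for 10431 of the tested genes. The 43 gene lists and the choice of members were made with earlier results of these data known. Named genes were the 12 largest increases and decreases among called genes of at least 5 CPM without overlap between groups, over all genes and over genes highest in endothelial cells, the largest differences between populations, and up to about 8 members per list, those of smallest adjusted p and those going against the majority, with a few more chosen for their role after their values were seen.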

Additional observations from a re-analysis of the deposited data

Results flagged for a closer look

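Within the groups of 4 libraries, the highest or lowest library was set against the others by Dixon's ratio for each of 245 named genes and 14 marker sums. It lay beyond the 95% critical value for 4 samples in 36 of 518 groups (6.95%), where chance gives about 1 in 20.

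P1 sham replicate 4 accounted for 13 of these. It was high for the cardiomyocyte marker sum (2754 CPM (others 885 to 939.7)), the pan-leukocyte sum (36.1 CPM (others 6.90 to 9.92)) and the macrophage sum (115 CPM (others 24.9 to 35.8)). It was high too for Ttn at 1333 CPM (others 306 to 360.1), Hrc at 3.91 CPM (others 1.36 to 1.72), Hmcn2 at 1.72 CPM (others 0.164 to 0.426), Ppara at 1.25 CPM (others 0.411 to 0.504), Ppargc1a at 4.81 CPM (others 0.896 to 1.16) and Cd74 at 4.51 CPM (others 0.542 to 0.784). It was low for Cldn5 at 349.6 CPM (others 501 in each), Acvrl1 at 85.9 CPM (others 104 to 108), Klf2 at 173 CPM (others 252 to 263) and Cdkn1b at 95.9 CPM (others 109 to 110.1). The cause was not tested.

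P56 replicate 2 accounted for 8, of which 7 are genes of the dividing cell. It was high for Mki67 at 60.5 CPM (others 15.1 to 17.9), Top2a at 28.9 CPM (others 8.40 to 10.8), Cdk1 at 6.36 CPM (others 1.79 to 2.51), Ccna2 at 7.12 CPM (others 2.56 to 3.04), Cenpe at 8.32 CPM (others 2.61 to 3.04), Kntc1 at 5.26 CPM (others 1.26 to 1.81) and Iqgap3 at 10.8 CPM (others 2.65 to 3.12), each below the lowest P1 library, and low for Gata2 at 56.3 CPM (others 77.6 to 81.3). The cause was not tested.

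P56 replicate 1 was high for Cldn5 at 309 CPM (others 80.4 to 95.6) and Vegfa at 62.4 CPM (others 44.1 to 47.2) and low for Xdh at 560.0 CPM (others 926 to 969) and Dnmt1 at 77.7 CPM (others 94.5 to 97.6). P56 replicate 3 was high for Bmp2 at 5.43 CPM (others 3.39 to 3.68) and Bmp6 at 115 CPM (others 98.1 to 100.0), and P56 replicate 4 was high for Nos3 at 315 CPM (others 226 to 237) and low for Uty at 98.0 CPM (others 113 to 114). P1 sham replicate 1 was high for Aplnr at 729 CPM (others 489 to 529.8) and low for Gstm1 at 11.1 CPM (others 13.6 to 13.9) and Nt5e at 9.97 CPM (others 15.7 to 16.7). P1 sham replicate 2 was high for Zbtb16 at 12.1 CPM (others 1.01 to 2.09), Timp4 at 67.9 CPM (others 30.2 to 35.1), Dll4 at 227 CPM (others 198 to 203) and Dnah3 at 0.904 CPM (others 0.301 to 0.387).

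The age change of endothelial cells differed from that of another population, by the test of the difference itself, for 4235 genes against fibroblasts, 7232 against leukocytes and 11419 against cardiomyocytes, and the same way against all 3, with the gene's own call in that direction in endothelial cells, for 516. The smallest of the 3 log2 differences was 3.38 for Slc1a1, 3.36 for Samd5, 2.97 for Aldh1a3, 2.80 for Serpina1b, 2.65 for Dnm3os, 2.60 for Fmo2 and 2.57 for Gda. In the negative direction it was -2.83 for Slc22a23, -2.45 for Slc43a2, -1.88 for Dapk1, -1.86 for Ppp1r9a, -1.57 for Hpn and -1.46 for Gsta4.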

How the results depend on the processing

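Of the results over all genes, the count of called genes moved by over 1.5 times only when a fold of at least 2 was asked for, which left 3067 of 9878. It was 9906 by edgeR and 9995 by DESeq2 on recovered reads, 9869 under median-of-ratios scaling (4804 higher and 5065 lower, against 5279 and 4599), 11328 without a filter, 7675 with a filter at 5 CPM, 10790 with array weights, and 9097 to 9480 without 1 library. That scaling moved the median of all genes by under 0.1. Leaving out 1 library gave 7561 to 8508 called genes after MI, 3650 to 3954 differences from fibroblasts, 6646 to 7002 from leukocytes, 11021 to 11199 from cardiomyocytes and 435 to 548 from all 3. Of 13120 pairs of a gene and an alternative, over 660 genes, 0 reversed, 252 lost and 113 gained a call, and 45 genes lost theirs at least once. Low genes had larger fold changes with a pseudocount of 0.1 or by edgeR; the cause is the added 0.5 CPM. Depth limits statements below the floor of 3 reads.

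Replicate numbers are shared by the groups, but same-numbered libraries did not deviate together (r = -0.16, -0.02, -0.06 and -0.13 over genes), so the numbers were not taken as pairs. With the replicate block 9657 genes were called, and no library correlated best with the library of its own number.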

Other observations

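Families outside the lists were counted after their values were seen. Of 47 tested genes of the histone clusters, whose RNAs are made in S phase, 43 were called lower at P56 and 1 higher, with a median log2 fold change of -2.84. Of 77 genes named for ribosomal proteins, 48 were lower and 7 higher (median -0.46). Of 323 zinc finger genes named Zfp, 161 were higher and 62 lower (median 0.27), and 6 of the 7 mitochondrially encoded protein genes were higher and 0 lower (median 0.65). Mitochondrial ribosomal RNA made up 3.49, 2.55, 2.23 and 1.86% of the signal in P56 replicates 1 to 4, in the order of their cardiomyocyte marker sums. It was 0.832 to 1.96% in P1 libraries and 23.1 to 38.2% in P56 sham cardiomyocytes. Whether muscle RNA carried the increase of the mitochondrially encoded genes was not tested.

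By biotype, 193 of 422 antisense genes were called higher and 61 lower, and 166 of 358 lincRNA genes higher and 86 lower, against 4418 and 4043 of 13188 protein-coding genes. Processed pseudogenes ran the other way, with 106 higher and 261 lower of 751. Antisense and intronic genes share reads with their hosts where the counting does not use strand, and pseudogenes share them with their parent genes.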
